A study of Mus musculus with 41 samples.

Results

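Livers of MupHe mice at the stage called NASH (steatohepatitis, fatty liver with inflammation) were set against livers of MupHe mice in the NC group, across all genes. The 6 libraries were chosen by genotype and group label alone, 3 MupHe NASH and 3 MupHe NC, out of 41 libraries in the table. MupHe NASH livers came from male C57BL/6 mice on a high-fat diet (HFD), and MupHe NC livers came from male C57BL/6 mice whose stage is given as healthy. The labels do not spell out NC or MupHe, and they name no promoter, allele, age or feeding time. Other genotypes served for comparison. These were IgAkMup NASH livers on HFD (3) with IgAkMup NC livers (3), and B6 HFD control livers with fatty liver called healthy (3) with B6 NC livers (3). IgAkCLM HFD control livers (3) were read beside them as levels. Liver tumours (HCC) on HFD of MupHe (4), IgAkMup (4) and CD8kMup (3) mice and CD8kMup NC livers (3) also entered the fit. They share in its estimate of spread and in ranges given over all libraries.

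A fatty liver takes up and burns more fatty acids, and the nuclear receptor PPAR alpha switches on the genes for that burning in peroxisomes, microsomes and mitochondria. Inflammation and scarring in NASH are carried by macrophages, lymphocytes and stellate cells. The male mouse liver also has its own gene programme, driven by pulses of growth hormone through the transcription factor STAT5b, in which the major urinary proteins are among the most abundant products.

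The values are the authors' regularized log2 (rlog2) levels. On such a scale each unit is a doubling, and low genes are pulled toward their overall mean. No counts were used, so depth is unknown. Pearson correlations across genes were 0.9926 to 0.9942 between the 3 MupHe NASH libraries, 0.9940 to 0.9943 between the 3 MupHe NC libraries, and 0.9797 to 0.9841 between the groups. Hepatocyte genes were high in both groups. Alb (albumin) averaged 19.35 in MupHe NASH and 19.22 in MupHe NC livers, and Hnf4a, a hepatocyte transcription factor, averaged 12.26 in MupHe NASH and 12.54 in MupHe NC livers. The labels' tools also differed between the groups (STAR and Cuffdiff for HFD samples, STAR, HOMER and DESeq2 for NC samples), so diet, stage and any difference in handling cannot be told apart. In bulk tissue, fewer cells of a type and less RNA per cell cannot be told apart either.

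The library MupHe NC 1 stood apart. Its skeletal muscle genes were high, with Acta1 (skeletal actin) at 8.59, against 1.27, 1.27 and 1.17 in MupHe NASH 1, 2 and 6 and 1.46 and 1.82 in MupHe NC 2 and 3. Over 11 muscle genes the mean level was 5.79 in MupHe NC 1, and it was 1.23 to 1.67 in the 32 libraries other than MupHe NC 1, B6 NC 1 and CD8kMup NC 4. All 12 NC libraries, from 4 genotypes, also carried genes of the intestinal lining. Reg3b, an antimicrobial lectin of the gut, stood at 2.33, 2.33 and 2.28 in MupHe NASH and at 4.89, 4.91 and 4.48 in MupHe NC livers, a difference of -2.44 ± 0.17 (SE, limma adjusted p = 3.93e-10). It ranged from 4.26 to 5.36 over all NC libraries and from 2.28 to 2.44 over all others. In a gut list written after these values were seen, 11 of 22 genes passed the filter on low values, and 4 of them fell (0.981% of all kept genes did), lysozyme 1 (Lyz1), Muc13 and Clec2h beside Reg3b. Leaving out a library gave 2 (without MupHe NASH 2 or 6, or MupHe NC 1 or 2) to 5 such calls. Of the 11, 7 lay lower in every MupHe NASH library than in every MupHe NC library (18.4% of all kept genes), and 3 lay higher (16.5%). Those 3 did not pass, the furthest being Fabp2, a fatty acid binding protein, with 1.00 (limma adjusted p = 0.30). Defa24, a Paneth cell defensin, was below the filter on low values and stood at 2.01, 2.02 and 1.96 in MupHe NASH and 4.42, 4.02 and 3.97 in MupHe NC livers. The intestinal transcription factors Cdx1 and Cdx2 were at or near 0 in all 6 libraries. Reg3b, Lyz1 and Defa24 were each higher in every NC library than in every other library used, tumours included. Over the 22 gut genes the mean level was 3.93 to 4.57 in NC libraries and 3.05 to 3.95 in all others. The part of gut genes in other results was not tested.

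**Figure D1:**
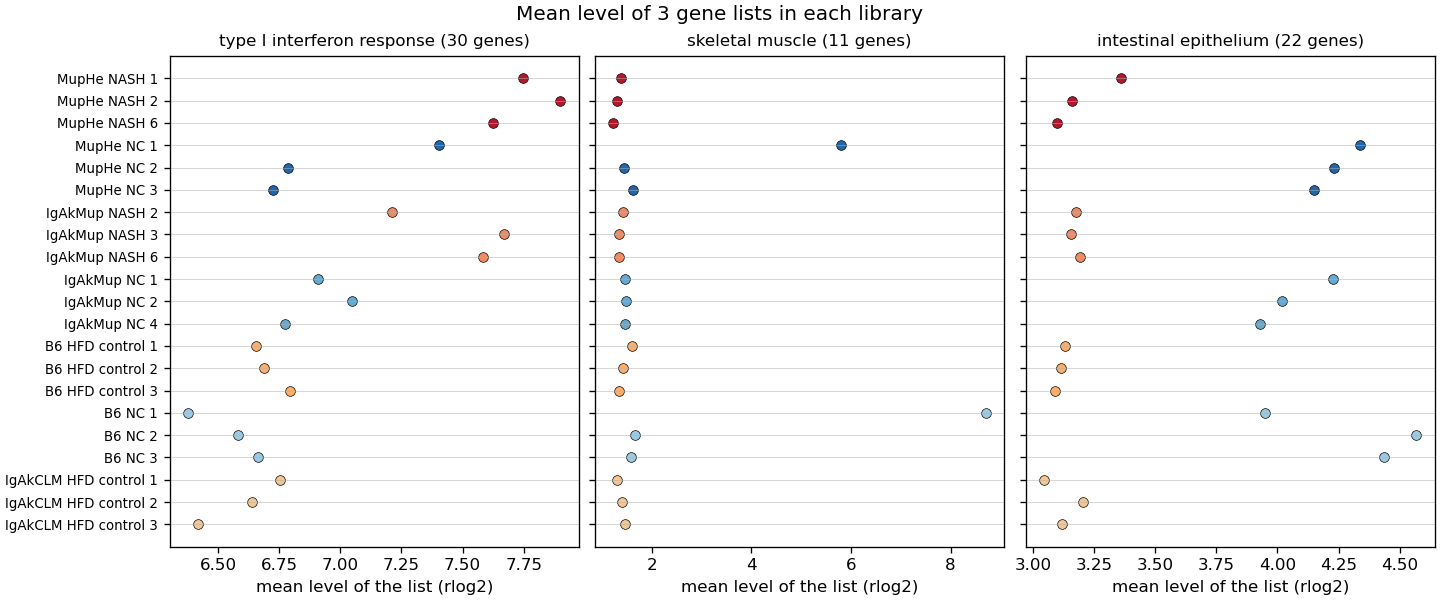
Mean rlog2 level of 3 gene lists in each library of 7 groups, 1 point per library. The interferon list was at 7.62 to 7.90 in the 3 MupHe NASH and 6.72 to 7.40 in the 3 MupHe NC libraries, the muscle list was high in MupHe NC 1 (5.79) and B6 NC 1, and the gut list was higher in every NC library drawn than in every HFD library drawn.

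Of 12337 genes kept, 238 (1.93%) differed between the groups. Of these, 117 (0.948% of the kept genes) were higher and 121 (0.981%) were lower in MupHe NASH than in MupHe NC livers, by limma with Benjamini-Hochberg adjusted p under 0.05. The median difference over all kept genes was -0.00206. With a difference of at least 1 added, 50 genes (0.405%) were higher and 56 (0.454%) lower. The fit took its estimate of spread from all 11 groups, liver tumours included. With the 6 libraries alone it called 889 genes higher and 1052 lower of 12269 kept, among them all 238 of the first count. Fits without 1 library left 95 (without MupHe NASH 2) to 142 (without MupHe NC 1) calls. Groups that did not overlap at all were more common, with 2037 genes (16.5%) higher and 2276 (18.4%) lower in every MupHe NASH library than in every MupHe NC library.

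**Figure D2:**
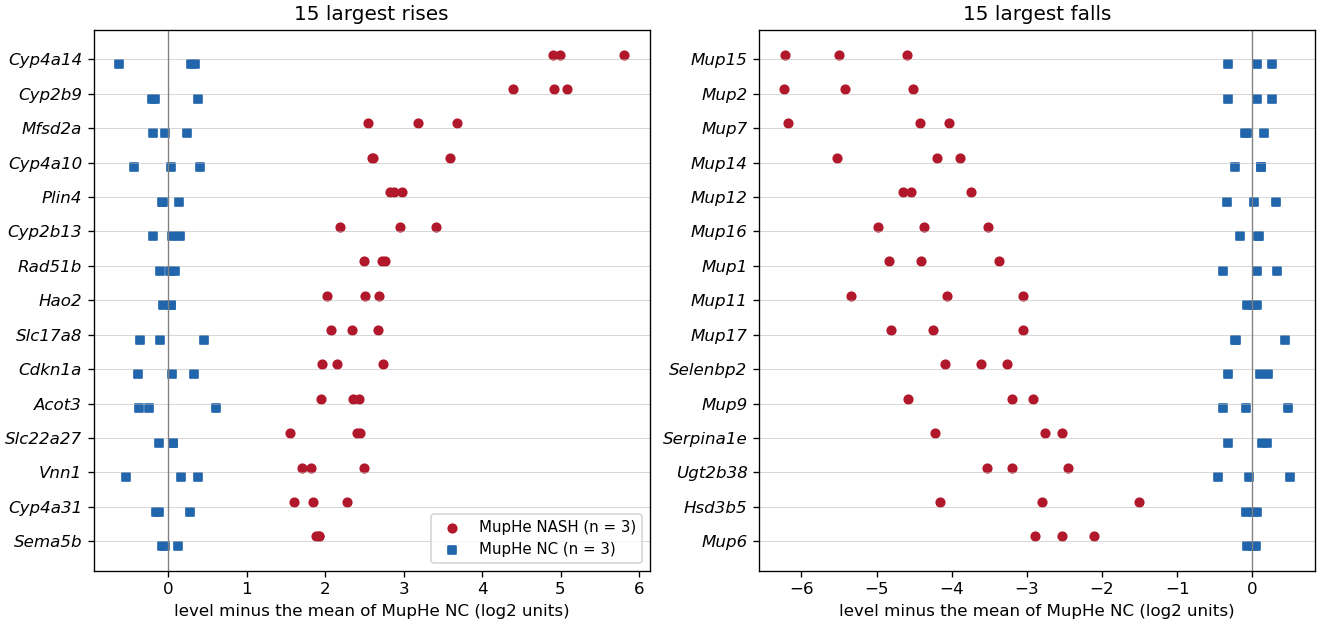
Level of the 15 genes with the largest rise and the 15 with the largest fall in each library, as the difference from the MupHe NC mean in log2 units (circles, 3 MupHe NASH libraries; squares, 3 MupHe NC libraries). The rises are led by Cyp4a14 (5.24), the falls by Mup15 (-5.44), and no gene's groups overlap because the choice of genes required it.

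Genes of fatty acid burning were higher in MupHe NASH livers. Of 32 PPAR alpha targets and fatty acid oxidation genes, 15 rose (0.948% of all kept genes did) and none fell, and the list's median difference was 0.77, against -0.00206 over all genes. The largest rise of any gene was that of Cyp4a14 (chromosome 4, 115486200 to 115496158), a microsomal omega-hydroxylase of fatty acids. Cyp4a14 stood at 13.08, 13.00 and 13.90 in MupHe NASH livers, against 7.46, 8.43 and 8.38 in MupHe NC livers, a difference of 5.24 ± 0.73 (SE, limma adjusted p = 6.14e-05). Its mean was 13.33 in MupHe NASH and 8.09 in MupHe NC livers, 13.12 in IgAkMup NASH and 11.21 in IgAkMup NC livers, and 13.46 in B6 HFD control and 10.78 in B6 NC livers. The HFD groups thus lay close together, and MupHe NC was the lowest of the 3 NC groups. The difference between the MupHe change and either other change did not pass (limma adjusted p = 0.18 against IgAkMup and 0.31 against B6).

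Its neighbours on chromosome 4 followed. Cyp4a10 had 11.68, 11.67 and 12.65 in MupHe NASH livers, against 8.63, 9.47 and 9.10 in MupHe NC livers (2.93 ± 0.62, limma adjusted p = 0.0082), and Cyp4a31 differed by 1.91 ± 0.45 (limma adjusted p = 0.022). Reads of these close copies can be split between them by counting, so their separate values are less certain than their shared direction. Vnn1, a pantetheinase known as a PPAR alpha target, had 10.60, 10.47 and 11.27 in MupHe NASH livers and 8.23, 9.15 and 8.93 in MupHe NC livers (2.01 ± 0.36, limma adjusted p = 0.0019). Angptl4, a secreted inhibitor of lipoprotein lipase, rose by 1.73 ± 0.32 (limma adjusted p = 0.0019).

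The steps of fatty acid breakdown were represented one by one. In peroxisomes, Pex11a, which helps peroxisomes divide, rose by 1.23 and Ech1 by 0.76. Acyl-CoA thioesterases, which free fatty acids from coenzyme A, rose in peroxisomes and mitochondria alike, Acot3 by 2.24 and Acot2 by 1.51. In mitochondria, the carnitine carrier Slc25a20 rose by 0.77, the medium-chain dehydrogenase Acadm by 0.78, the trifunctional protein subunit Hadhb by 0.76 and the dienoyl-CoA reductase Decr1 by 0.77. Cpt1a, the gate of mitochondrial uptake, had a difference of 0.83 that missed the threshold (limma adjusted p = 0.053), as did the liver hormone Fgf21 at 1.4 (0.065). Fabp1, the main fatty acid binding protein of hepatocytes, differed by -0.07 and overlapped between groups. Leaving out a library gave 5 (without MupHe NASH 6) to 11 (without MupHe NASH 1) calls among the 32 genes, and 7 without MupHe NC 1, while the median stayed between 0.71 and 0.85. Cyp4a14, Vnn1, Angptl4 and Acot2 passed in all 6 of these fits, and Ech1, Acot3 and Cyp4a31 in none.

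Genes of fat uptake and storage mostly lay higher, although few passed. Of 24 lipid droplet and fat uptake genes, 2 rose (0.948% of all kept genes did) and 21 had a positive difference, with a list median of 0.46. In 13 of the 24 every MupHe NASH library lay above every MupHe NC library (16.5% of all kept genes). With the 6 libraries alone 13 were called higher (889 of all 12269 kept genes were) and 1 lower (1052). Plin4, a coat protein of lipid droplets, had 8.17, 8.11 and 8.27 in MupHe NASH livers, against 5.21, 5.43 and 5.22 in MupHe NC livers (2.90 ± 0.54, limma adjusted p = 0.0023). The fatty acid transporter Cd36 had 1.46 ± 0.22 (limma adjusted p = 0.00028). Both passed in every fit that left out a library. The droplet fusion genes Cidec (2.27) and Cidea (2.09) and the most common hepatocyte coat protein Plin2 (1.32) had groups that did not overlap but adjusted p of 0.18, 0.098 and 0.092. Outside the lists, Mfsd2a, a lysolipid transporter, rose by 3.14 ± 0.54 (limma adjusted p = 0.0012), and Mgll, which cleaves monoglycerides, by 1.42. Fatty acid synthesis gave no call among 20 genes by limma, with 1 gene higher and 2 lower at an unadjusted p under 0.05, and 4 higher and 6 lower with the 6 libraries alone.

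Cholesterol synthesis genes lay lower in MupHe NASH livers, although few passed. Of 26 genes 2 fell (0.981% of all kept genes did), 25 had a negative difference, and the median was -0.88. In 23 the groups did not overlap (18.4% of all genes did so in that direction). Insig1, which holds the sterol sensor in the endoplasmic reticulum, had 10.63, 10.03 and 10.25 in MupHe NASH livers and 11.68, 12.14 and 11.66 in MupHe NC livers (-1.52 ± 0.27, limma adjusted p = 0.0016). Pmvk, an enzyme of the mevalonate steps, fell by 1.26 (limma adjusted p = 0.042). Sqle (-1.47), Fdps (-1.47) and Nsdhl (-1.5), enzymes of the later steps, did not pass (0.21, 0.12 and 0.11). With the 6 libraries alone 21 of the 26 genes were called lower (1052 of all 12269 kept genes were). Insig1 passed in all 6 fits that left out a library, and Pmvk in 1 of them, without MupHe NASH 1.

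**Figure D3:**
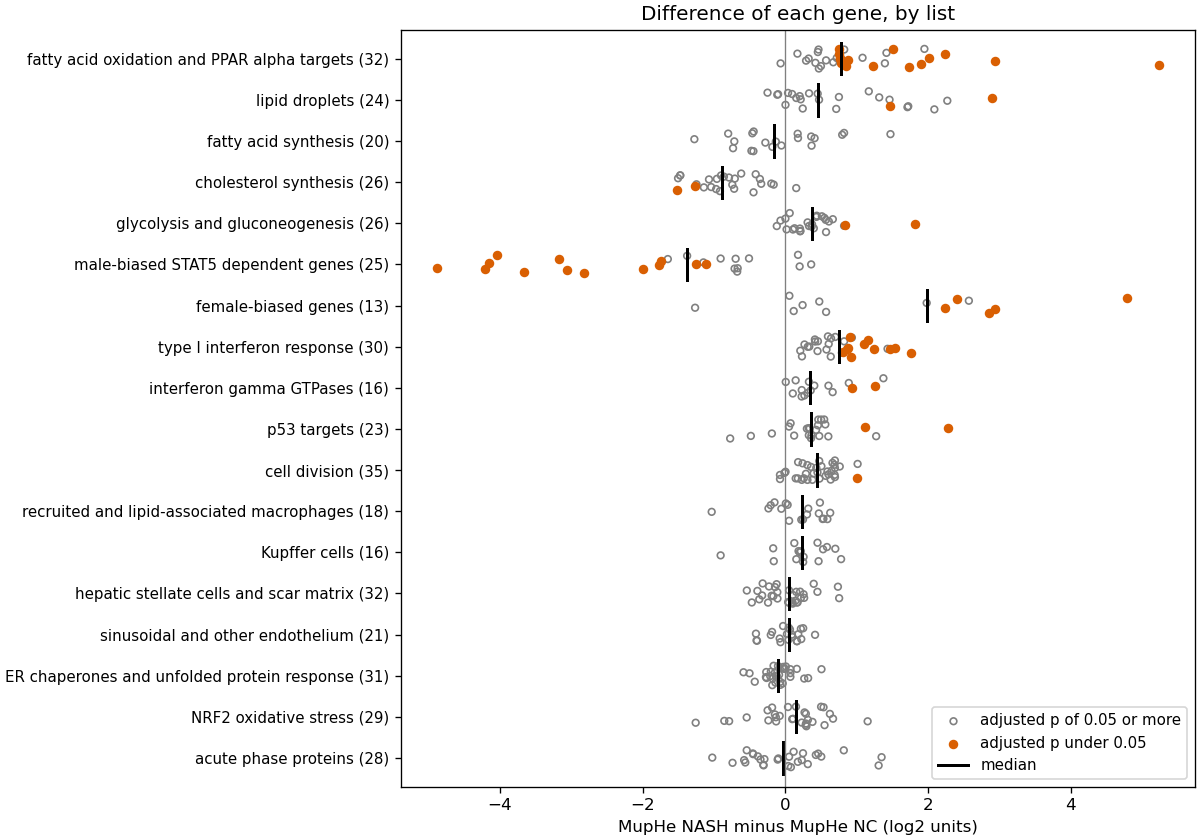
Difference of MupHe NASH minus MupHe NC livers for each kept gene of 18 lists, in log2 units, with the number of kept genes in brackets, the median as a bar and called genes filled. PPAR alpha targets and interferon genes lie to the right of 0, male-biased and cholesterol genes to the left. Recruited macrophage and Kupffer cell genes lie mostly to the right (medians 0.24 and 0.23). Stellate cell and endothelial lists lie around 0 (medians 0.05 and 0.05). None of these macrophage, Kupffer, stellate or endothelial lists has a filled point.

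The male liver programme was lower in MupHe NASH livers. Of 25 male-biased genes that depend on STAT5, 13 fell (0.981% of all kept genes did) and none rose. In 21 of the 25 every MupHe NASH library lay below every MupHe NC library (18.4% of all kept genes), and the median was -1.38. The major urinary proteins, pheromone carriers made by male hepatocytes, fell furthest. Of 21 Mup genes in the table, all of them placed by RefSeq in a cluster on chromosome 4 (59956804 to 62150841), 17 were kept. Of these 17, 13 fell by limma adjusted p under 0.05 (0.981% of all kept genes did) and none rose. Mup2 had 5.88, 5.08 and 6.79 in MupHe NASH livers, against 10.99, 11.56 and 11.37 in MupHe NC livers (-5.39 ± 0.63, limma adjusted p = 3.28e-06). Mup15 (-5.44) and Mup7 (-4.88) fell as far, Mup6 and Mup18 by 2.51 and 2.19. Of the 4 kept members that did not pass, Mup20 and Mup3 were the most abundant. Mup20, known as darcin, had 14.74, 14.20 and 14.58 in MupHe NASH livers and 15.17, 15.18 and 15.25 in MupHe NC livers (-0.70, limma adjusted p = 0.66), and Mup3 differed by -0.67 (0.69). Mup genes are near-identical copies, and Mup2 and Mup15 had nearly the same value in every library, so single members are uncertain.

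Enzymes and transporters of the male programme outside the Mup cluster were lower too. Hsd3b5, a male-specific steroid dehydrogenase, had 7.90, 6.55 and 9.19 in MupHe NASH livers and 10.71, 10.62 and 10.76 in MupHe NC livers (-2.82 ± 0.70, limma adjusted p = 0.028), so that the MupHe NASH livers spread widely and the MupHe NC livers hardly at all. Selenbp2 had 8.13, 8.61 and 8.96 in MupHe NASH livers and 12.33, 11.91 and 12.44 in MupHe NC livers (-3.66 ± 0.68, limma adjusted p = 0.0022). Serpina1e, an alpha-1 antitrypsin copy, differed by -3.18, the glucuronidating enzymes Ugt2b38 and Ugt2b1 by -3.06 and -1.77, and C8b, a complement subunit, by -2.0, and all 4 passed. The organic anion transporter Slco1a1 fell by 1.74 (limma adjusted p = 0.048). Leaving out a library left 6 (without MupHe NASH 2) to 11 (without MupHe NASH 6) of the 13 calls, and 7 without MupHe NC 1. Selenbp2, C8b, Ugt2b38 and the Mup genes given above with a fall passed in all 6 of these fits, Hsd3b5 and Slco1a1 in 1, and Serpina1e in none.

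Some genes that are normally higher in female livers rose. Of 22 listed, 13 passed the filter and 5 of these rose (0.948% of all kept genes did), while 12 had a positive difference. The exception was Sult1e1, an estrogen sulfotransferase, at -1.26 (limma adjusted p = 0.67) with groups that did not overlap. The filter uses the mean over all libraries, so a weak gene can pass it through the groups in which it is high. The 13 kept genes had a median of 1.98. Without the filter 3 of the 22 were called higher and none lower, and the median was 0.21. With the 6 libraries alone 8 of 13 were called higher (889 of all 12269 kept genes were) and 1 lower (1052). Cyp2b9, a female-predominant cytochrome, had 10.75, 10.92 and 10.23 in MupHe NASH livers, against 5.63, 5.67 and 6.21 in MupHe NC livers (4.80 ± 1.05, limma adjusted p = 0.011). Its neighbour Cyp2b13 had 6.32, 6.78 and 5.56 in MupHe NASH and 3.17, 3.51 and 3.41 in MupHe NC livers (2.86 ± 0.75, limma adjusted p = 0.042). Hao2, a peroxisomal hydroxyacid oxidase, rose by 2.41 ± 0.47 (limma adjusted p = 0.0041). The other 2 calls, Acot3 and Cyp4a10, are also on the PPAR alpha list. Of the 5 calls, 2 or 3 remained when a library was left out, and Cyp2b13 passed in none of these fits. Of the factors that drive the programme, the growth hormone receptor Ghr differed by -0.42 and Stat5b by -0.04, and Bcl6, a male-biased repressor of female genes, stood at 6.10, 7.86 and 9.04 in MupHe NASH and 8.19, 8.15 and 8.78 in MupHe NC livers (-0.71), with none of the 3 passing. Cyp2b9 showed like changes in the other genotypes, 3.07 in IgAkMup and 4.79 in B6, and the test of the difference from the MupHe change gave limma adjusted p of 0.77 and 1.00. MupHe NC livers had the highest mean of Mup2 among the 3 NC groups, 11.30, beside 8.84 in IgAkMup NC and 9.25 in B6 NC livers.

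**Figure D4:**
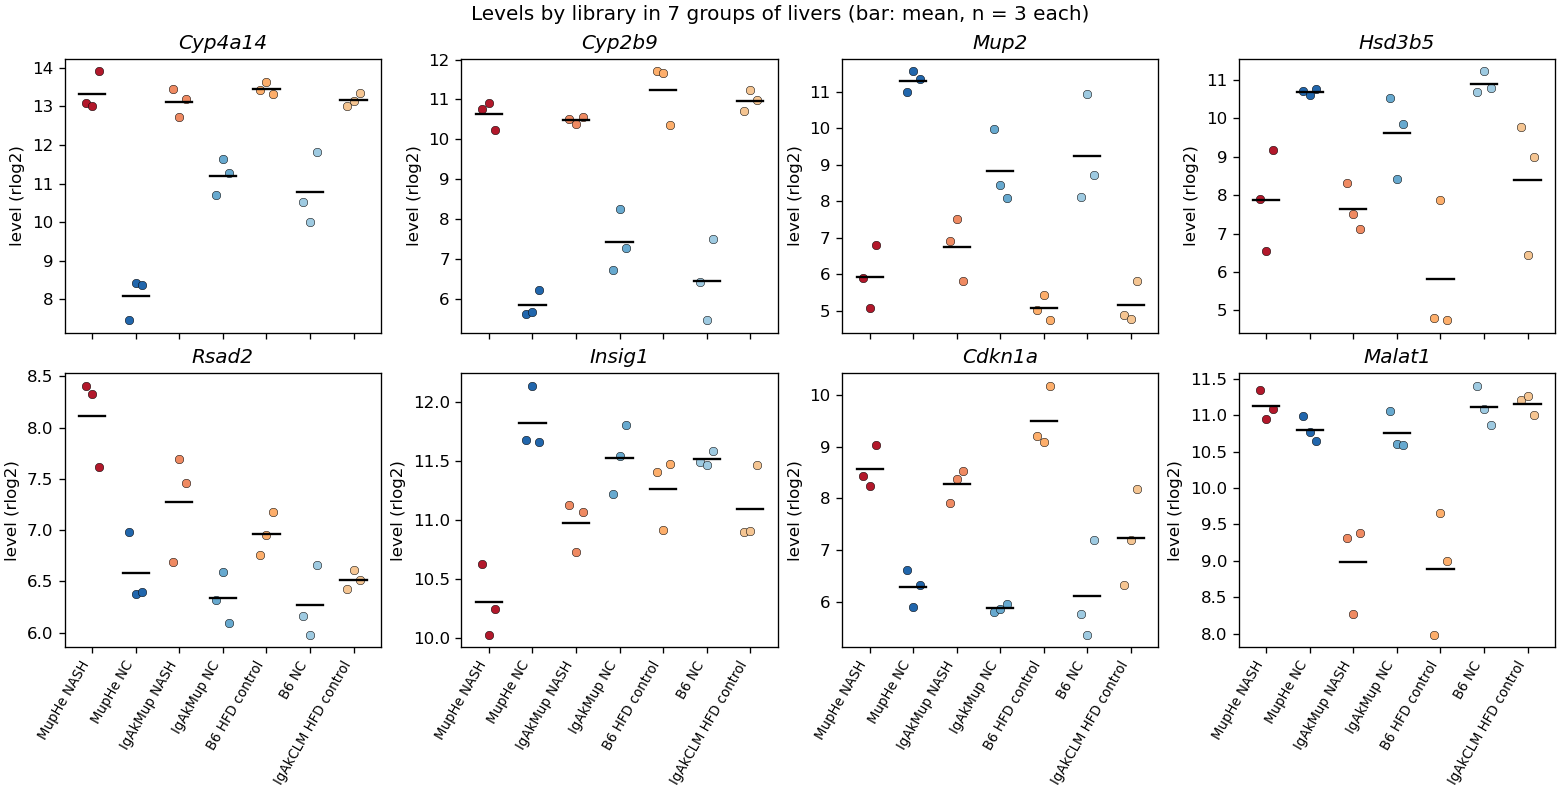
Levels of 8 genes (rlog2, 1 point per library, bar at the mean) in 7 groups with n = 3 each. Cyp4a14, Cyp2b9 and Mup2 separate every HFD group from its NC group, Rsad2 is highest in MupHe NASH livers (mean 8.12), and Malat1 is low in IgAkMup NASH and B6 HFD control livers but not in MupHe NASH livers (11.13).

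Genes induced by type I interferon were higher in MupHe NASH livers. Of 30 in the list, 11 rose (0.948% of all kept genes did), none fell, and all 30 had a positive difference, with a median of 0.75. Many such genes share a short element in their promoters, bound when interferon reaches the cell. Ifi44, an interferon-induced protein of the cytoplasm, had 7.33, 7.67 and 7.01 in MupHe NASH livers, against 6.37, 5.24 and 5.11 in MupHe NC livers (1.76 ± 0.32, limma adjusted p = 0.0021). Rsad2, the antiviral enzyme viperin, had 8.41, 8.33 and 7.61 in MupHe NASH livers and 6.98, 6.37 and 6.40 in MupHe NC livers (1.53 ± 0.30, limma adjusted p = 0.0040). Usp18, which removes ISG15 from proteins and limits interferon signalling, had 8.28, 8.37 and 8.27 in MupHe NASH livers and 7.56, 6.57 and 6.40 in MupHe NC livers (1.46 ± 0.27, limma adjusted p = 0.0024). In each of these genes MupHe NC 1, the library with muscle RNA, was the highest of the MupHe NC group. Its mean over the 30 genes was 7.40, beside 6.79 and 6.72 in MupHe NC 2 and 3, and the 3 MupHe NASH libraries had 7.75, 7.90 and 7.62.

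The ubiquitin-like protein Isg15 rose by 1.10 ± 0.25 (limma adjusted p = 0.016), the RNA sensor Oas1a by 1.25 ± 0.29 (0.017), the nucleotide kinase Cmpk2 by 1.16 and the tether Bst2 by 0.87. Ifit1 differed by 1.43 and missed the threshold (limma adjusted p = 0.055). Ifi44, Rsad2 and Usp18 passed in all 6 fits that left out a library, and Bst2 in none. Without MupHe NC 1, 13 of the 30 genes passed and the median was 0.93. The other 5 fits that left out a library called 3 (without MupHe NASH 2 or without MupHe NC 3) to 6 (without MupHe NASH 6). Of the GTPases known as interferon gamma targets, 2 of 16 rose (0.948% of all kept genes did), Gbp6 (1.26 ± 0.30) and Gbp3 (0.93 ± 0.23). All 16 differences were positive with a median of 0.34. Neither Gbp6 nor Gbp3 passed without MupHe NASH 1, MupHe NASH 2, MupHe NC 2 or MupHe NC 3. Among 17 chemokines and cytokines, Cxcl10, an interferon-induced T cell attractant, was the sole call, at 5.44, 5.97 and 5.55 in MupHe NASH livers and 4.96, 4.46 and 4.64 in MupHe NC livers (0.96 ± 0.26, limma adjusted p = 0.046), but it passed in no fit that left out a library.

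Ifi44 averaged 7.34 in MupHe NASH and 5.57 in MupHe NC livers, 6.95 in IgAkMup NASH and 5.76 in IgAkMup NC livers, and 5.45 in B6 HFD control and 5.17 in B6 NC livers. IgAkCLM HFD control livers had 5.2. The fatty livers called healthy were thus at the level of NC livers for this gene and the NASH livers above it. Rsad2 differed, with 6.76, 6.95 and 7.17 in B6 HFD control and 6.16, 5.98 and 6.66 in B6 NC livers. Of the 30 genes, 3 were called higher in B6 livers (9.59% of all kept genes) and 1 lower (11%), with a median of 0.22. In IgAkMup livers 12 were called higher (5.53%) and none lower (7.39%), with a median of 0.59. The test of the MupHe change against the B6 change did not pass for Ifi44 (limma adjusted p = 0.14) nor for Usp18 (0.36) or Rsad2 (0.44).

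Promoters of 2 interferon genes are shown because the list moved together and its members share a known element. The interferon-stimulated response element was searched on both strands as GAAA, any 2 bases and GAAA, from 250 bases before to 50 after the start of each gene, in RefSeq promoters of mouse genome build GRCm38.p6. It was found for 14 of the 22 list genes with a promoter in that set (63.6%) and for 6 of the 9 called ones (66.7%), and for 1079 of all 27025 genes (3.99%). The genes of the list were gathered because interferon induces them, so that share describes the list and not these livers. The 250 bases before the start of Rsad2 (chr12:26456453-26456702, minus strand) and Isg15 (chr4:156200819-156201068, minus strand) follow, 5′ to 3′, with capitals for the element, which reads as its reverse complement in Rsad2. Isg15 has 3 overlapping matches. In the same window the sterol response element, searched as ATCAC, any base and CCAC, was found for none of 18 cholesterol synthesis genes and for 0.27% of all genes. TTTGAA, the cell cycle genes homology region, was found for 14 of 27 cell division genes (51.9%) and for 20.2% of all.
Rsad2: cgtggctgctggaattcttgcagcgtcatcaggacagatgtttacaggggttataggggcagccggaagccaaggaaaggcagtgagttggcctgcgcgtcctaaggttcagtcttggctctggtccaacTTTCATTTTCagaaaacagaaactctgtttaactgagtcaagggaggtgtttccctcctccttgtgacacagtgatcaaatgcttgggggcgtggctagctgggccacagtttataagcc
Isg15: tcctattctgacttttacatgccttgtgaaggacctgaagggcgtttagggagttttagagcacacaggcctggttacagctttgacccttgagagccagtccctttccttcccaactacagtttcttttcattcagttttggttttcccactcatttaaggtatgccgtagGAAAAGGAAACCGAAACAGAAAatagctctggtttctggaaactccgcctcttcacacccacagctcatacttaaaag

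Genes of cell cycle arrest and growth mostly lay higher, within lists that gave few calls. Cdkn1a, the p53-induced kinase inhibitor p21, had 8.44, 8.25 and 9.02 in MupHe NASH livers, against 6.62, 5.91 and 6.33 in MupHe NC livers (2.28 ± 0.38, limma adjusted p = 0.00084). With Trp53inp1, a p53-induced cofactor (1.12 ± 0.27, limma adjusted p = 0.022), it made 2 calls among 23 p53 targets (0.948% of all kept genes rose), whose median was 0.37. A positive difference was seen in 20 of the 23. In 15 every MupHe NASH library lay above every MupHe NC library (16.5% of all kept genes), and in 2 below (18.4%). With the 6 libraries alone 12 of 22 were called higher (889 of all 12269 kept genes were) and 2 lower (1052). Trp53inp1 did not pass without MupHe NASH 2, MupHe NASH 6, MupHe NC 2 or MupHe NC 3, which left 1 call. Cdkn1a also averaged 8.27 in IgAkMup NASH and 5.88 in IgAkMup NC livers, and 9.49 in B6 HFD control and 6.12 in B6 NC livers. Of 35 cell division genes 1 rose (0.948% of all kept genes did). This was Ccnb2, the mitotic cyclin B2, at 5.09, 4.83 and 4.35 in MupHe NASH livers and 4.0, 3.71 and 3.54 in MupHe NC livers (1.01 ± 0.23, limma adjusted p = 0.017). A positive difference was seen in 32 of the 35, with a median of 0.45. In 9 every MupHe NASH library lay above every MupHe NC library (16.5% of all kept genes). With the 6 libraries alone 9 of 34 were called higher (889 of all 12269 kept genes were). The proliferation marker Mki67 had 6.79, 6.85 and 5.83 in MupHe NASH livers and 5.48, 5.72 and 5.23 in MupHe NC livers (1.01, limma adjusted p = 0.092), lowest within MupHe NASH in library 6. Ccnb2 did not pass in 4 of the 6 fits without a library. Rad51b, a recombination repair gene, rose by 2.66 ± 0.42 (limma adjusted p = 0.00048), with 7.64, 7.40 and 7.67 in MupHe NASH and 4.93, 4.81 and 5.0 in MupHe NC livers.

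Sugar metabolism gave 2 calls among 26 genes, both higher (0.948% of all kept genes rose), and its median was 0.37. A positive difference was seen in 24 of the 26. With the 6 libraries alone 11 were called higher (889 of all 12269 kept genes were). G6pc, which releases glucose from the liver, had 12.09, 11.84 and 11.67 in MupHe NASH livers and 10.08, 9.62 and 10.43 in MupHe NC livers (1.82 ± 0.47, limma adjusted p = 0.035), and it did not pass when any of the 6 libraries was left out. Its change was 0.85 in IgAkMup and -0.25 in B6 livers, and the difference of the MupHe change from these did not pass (limma adjusted p = 0.67 and 0.16). Ldha, lactate dehydrogenase A, rose by 0.83 ± 0.18 (limma adjusted p = 0.011). Anxa2, an annexin listed here as a bile duct and progenitor gene, had 9.98, 9.81 and 9.15 in MupHe NASH livers and 8.22, 8.20 and 8.20 in MupHe NC livers (1.44 ± 0.24, limma adjusted p = 0.00098). Jun, an immediate early transcription factor, rose by 1.00 and was the sole call of 21 such genes, but it did not pass without MupHe NASH 1, MupHe NASH 2, MupHe NC 1 or MupHe NC 3. Among falls, Vegfa, the endothelial growth factor, differed by -0.64 ± 0.13 (limma adjusted p = 0.0052), which was less than in B6 livers (-1.59, limma adjusted p of the difference = 0.0067). B6 HFD control livers also differ from MupHe NASH livers in stage and in the column tag described below. Genotype, stage and tag cannot be told apart in that difference. Further falls were those of Cyp2c70, which makes muricholic bile acids (-1.46), Cyp26a1, which breaks down retinoic acid (-2.35), and the secreted protein Fetub (-0.92).

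Cell types and stress pathways that are associated with NASH gave few calls or none. No gene passed by limma among 18 of recruited and lipid-associated macrophages (median 0.24), 16 of Kupffer cells (0.23) or 32 of stellate cells and scar matrix (0.05). Differences were positive in 13 of 18, 13 of 16 and 18 of 32 genes. Every MupHe NASH library lay above every MupHe NC library in 8, 3 and 3 of them (16.5% of all kept genes). The reverse held in 1, 1 and 4 (18.4%). At an unadjusted p under 0.05 there were 2, 1 and 1 genes higher and none lower (1705 of all 12337 genes passed in either direction). With the 6 libraries alone 2, 4 and 2 were called higher (889 of all 12269 kept genes were) and 1 each lower (1052). Trem2, a lipid-sensing receptor of recruited macrophages, had 4.77, 4.92 and 4.79 in MupHe NASH livers and 4.05, 4.12 and 4.72 in MupHe NC livers, with every MupHe NASH library above the MupHe NC group. Its difference was 0.53, with a 95% interval from -0.06 to 1.13. Spp1 (osteopontin) differed by 0.01, with an interval from -1.25 to 1.27, and Col1a1, the chief scar collagen, by 0.11, with an interval from -0.80 to 1.02. Such intervals are wide beside the differences.

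Lymphocyte genes were near the floor. Of 24 T and NK cell genes 8 passed the filter, and 8 of 17 B and plasma cell genes did, with no call in either by limma. At an unadjusted p under 0.05, and with the 6 libraries alone, there was no T or NK cell gene and 1 B cell or plasma cell gene, lower. Cd8a, which marks cytotoxic T cells, had 3.30, 3.39 and 3.38 in MupHe NASH livers and 3.71, 3.11 and 3.35 in MupHe NC livers. The unfolded protein response (31 genes, median -0.10), NRF2 targets (29, 0.15), acute phase proteins (28, -0.03), urea cycle and amino acid breakdown (35, -0.14) and the clock (20, -0.21) had no call either. Unadjusted p under 0.05 was met by 3, 4, 2, 4 and 2 of their genes. With the 6 libraries alone the calls were 1 higher and 4 lower, 2 and 1, 4 and 5, 2 and 12, and 1 and 7, in the same order of lists. Over all 12269 genes kept in that fit, 889 were called higher and 1052 lower.

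Plau, the urokinase gene, was looked up because mice named for Mup in liver studies often carry urokinase under a Mup promoter, although the labels do not say that MupHe is such a line. Plau had 5.87, 6.02 and 5.27 in MupHe NASH livers and 4.83, 4.74 and 4.84 in MupHe NC livers. The groups did not overlap, and an exact two-sided permutation test gave p = 0.10, the smallest that 3 against 3 can give. The difference of 0.92 ± 0.54 did not pass across all genes (limma adjusted p = 0.48), and B6 livers, which have no such name, showed 0.86 (limma adjusted p = 0.27).

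The change from NC to the fatty stage could also be set against that in other genotypes. IgAkMup NASH against IgAkMup NC livers gave 682 genes higher (5.53%) and 912 lower (7.39%), and B6 HFD control against B6 NC livers 1183 higher (9.59%) and 1355 lower (11%), each with n = 3 and in the same fit. The counts do not show that the changes differ, so the difference itself was tested. Both tests use the same MupHe libraries, and in both genotype cannot be told apart from the column tag described below. The MupHe change exceeded the IgAkMup change for 57 genes (0.462%) and was below it for 1, Mup8 (0.00811%). It exceeded the B6 change for 102 genes (0.827%) and was below it for 5 (0.0405%). No gene of the PPAR alpha, male-biased or type I interferon lists was among them. Mup8 is not on the male-biased list, but it is 1 of the 13 Mup genes that fell in MupHe livers. It was called in both tests, at -1.46 against IgAkMup and -1.32 against B6.

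Of 5 kept genes on a list of nuclear-retained and non-coding RNA, 1 was called in the test against IgAkMup and 2 in the test against B6. Malat1, a long non-coding RNA of nuclear speckles, had 11.35, 10.94 and 11.09 in MupHe NASH livers and 10.99, 10.77 and 10.64 in MupHe NC livers, an overlapping difference of 0.33 (limma adjusted p = 0.77). It averaged 8.99 in IgAkMup NASH and 10.75 in IgAkMup NC livers, and 8.88 in B6 HFD control and 11.12 in B6 NC livers. The difference of changes was 2.09 against IgAkMup and 2.56 against B6 (limma adjusted p = 0.046 and 0.0076). Neat1 of the paraspeckles, Firre, Leng8 and, named after their values were seen, Pnisr and the splicing proteins Srrm2, Srsf5 and Son were called in at least 1 of the 2 tests, and their MupHe differences lay between -0.20 and -0.01. Of the 57 genes, 55 fell in IgAkMup and 2 changed in MupHe livers, and of the 102, 98 fell in B6 and 4 changed in MupHe livers. The column names carry a tag, SS N for IgAkMup NASH and B6 HFD control and Tri N for MupHe NASH and IgAkCLM HFD control, in which Malat1 averaged 11.16. The labels do not explain that tag. Among these 4 groups Malat1 was low in both that carry SS N and not in those that carry Tri N. Malat1 was not read in the 6 unused columns, which carry these tags too, and the part of the tag in this result was not tested. With 1 library left out there were 5 to 110 calls in the test against IgAkMup (without IgAkMup NASH 3 and without IgAkMup NASH 6), and 40 to 160 in the test against B6 (without MupHe NASH 2 and without B6 HFD control 2).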

How the data were processed

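Polyadenylated RNA of mouse liver was sequenced from TruSeq Stranded mRNA libraries, per the labels' protocols. The submitters' processing notes name STAR and Cuffdiff for HFD samples and STAR, HOMER and DESeq2 for NC samples, with the mm10 genome. The authors deposited rlog2 values, a regularized log2 scale, in 1 table of 24511 genes and 41 columns. How the authors made the values is not given in the sources used here, and depth is unknown. Of the columns, 35 were matched to 11 groups by name. The other 6 fit more than 1 group and were not used. MupHe NASH libraries are numbered as in their column names (1, 2 and 6). Nothing in the labels ties replicates to separate mice, and p-values therefore reflect the spread between samples, which may be technical.

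Genes with a mean of at least 3 were kept. Group means were fitted with limma 3.58.1 (R 4.3.3), with trend, over all 11 groups. P-values are two-sided and adjusted over 12337 genes, with a threshold of 0.05. On simulated data, 50 of 50 genes changed by 3 and 47 of 50 raised by 1.5 were called in MupHe NASH against MupHe NC. The simulated noise was independent and had the same spread for a gene in every group. It therefore does not show how often real changes of that size are called. Genes named were the 15 largest rises and 15 largest falls among called genes without overlap, up to 5 of each list, the 5 largest of each difference of changes (predicted and Rik names left out), and Plau, Cd8a and Cd8b1. Other names were chosen after their values were seen. The comparison and the lists were chosen with earlier results of these data known. Alternatives were no filter, a mean of at least 5, median centring, quantile normalization, the compared groups alone, no tumours, array weights, no trend, and leaving out each library.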

Additional observations from a re-analysis of the deposited data

Results flagged for a closer look

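Leaving out predicted genes and those with Rik names, these had the largest differences of changes between genotypes among genes called by a test of that difference itself (limma, adjusted p under 0.05). MupHe NASH columns carry the tag Tri N, IgAkMup NASH and B6 HFD control columns SS N, and all NC columns Tri. Genotype and tag therefore cannot be told apart in either test, nor can stage against B6, whose fatty livers are called healthy. Relative to the IgAkMup change, the MupHe change was higher by 2.24 for Zfp970, 2.18 for Firre, 2.09 for Malat1, 1.86 for Leng8 and 1.70 for Fam193b, and it differed by -1.46 for Mup8. Relative to the B6 change, it was higher by 2.75 for Neat1, 2.56 for Malat1, 2.20 for Lgals6, 2.19 for Lgals4 and 2.05 for Leng8. It differed by -1.73 for Herpud1, -1.32 for Mup8, -1.28 for Plekhf1, -0.627 for Gars and -0.573 for Snx3. The close copies Lgals4 and Lgals6 share reads, so their values are not independent. Of the 11 kept genes of the gut list, 1 was called higher in the test against B6 (0.827% of all kept genes) and none against IgAkMup. The part of the gut genes carried by NC libraries in these differences was not tested.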

How the results depend on the processing

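No paired analysis was possible because the MupHe NASH columns end in 1, 2 and 6 and carry no replicate number of the labels. The 238 calls of MupHe NASH against MupHe NC became 1941 with the 6 libraries alone, 1389 without the HCC groups and 2479 with array weights, and each of these held all 238. Leaving out a library gave 95 to 142. The 58 calls of the MupHe change against the IgAkMup change became 37 with a mean of at least 5, 33 with quantile normalization, 608 with the compared groups alone, 413 without the HCC groups and 1641 with array weights. Leaving out a library gave 5 to 110. The 107 calls against the B6 change became 64, 296, 809 and 888 under the last 4 of these settings in the same order, and 40 to 160 without a library. The share of calls that were higher, 98.3% against IgAkMup and 95.3% against B6, became 65.1% and 65.9% with the compared groups alone, 69.0% and 54.5% without the HCC groups, and 54.8% and 59.0% with array weights. The cause of these shifts was not tested. Of 61 called genes named in the report, 30 were called under every alternative and 31 were lost in at least 1. Some genes with no call changed sign in some settings. Quantile normalization gave 0.153 for Fabp1, 0.0273 for Neat1, 0.0197 for Son and 0.0044 for Stat5b, and array weights gave 0.0248 for Neat1. Leaving out a library gave -1.40 to 0.0733 for Bcl6, -0.172 to 0.128 for Cd8a, -0.204 to 0.394 for Col1a1, -0.192 to 0.0524 for Fabp1, -0.125 to 0.0191 for Leng8 and -0.263 to 0.248 for Neat1. It gave -0.0383 to 0.0120 for Son, -0.0899 to 0.0989 for Spp1, -0.150 to 0.0015 for Srsf5 and -0.103 to 0.0104 for Stat5b. No gene called in the report changed sign. Shrunken rlog2 values of weak genes limit what can be seen in lymphocyte and neutrophil lists.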
